A study of Mus musculus with 56 samples.

Results

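Replication-dependent histone genes encode the core histones H2A, H2B, H3 and H4 and the linker histone H1 that package newly copied DNA. The members were all rows of the expression table whose Ensembl ID carries, in the GENCODE M21 annotation, a symbol that starts with Hist1h, Hist2h, Hist3h or Hist4. The rule used gene names and no measured value, and found 63 of 24410 rows: 6 H1, 17 H2A, 16 H2B, 11 H3 and 13 H4 genes. The annotation holds 70 such symbols, and the other 7 (Hist1h2aj, Hist1h2al, Hist1h2bh, Hist1h2bm, Hist1h3d, Hist2h2aa1 and Hist3h2bb-ps) were not analysed here. Of the 63 genes, 51 lie on chromosome 13 between positions 21715763 and 23934851 (GRCm38), 9 on chromosome 3, 2 on chromosome 11 and 1 on chromosome 6.

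The values come from single colon tumor cells of 1 male ApcMin/+ mouse, which carries 1 truncated copy of the tumor suppressor Apc. From the age of 10 weeks it drank water with 2% dextran sulfate sodium (DSS), which injures the colonic lining, during 5 days, and at 12 weeks the cells of 3 tumors were mixed. Single DAPI-Cd31-Cd45-Epcam+Cd24+ cells were sorted, and sequencing libraries were built by the Bead-seq method from the cDNAs that gave a product for the stem cell gene Lgr5 after 32 PCR cycles. There was 1 group and no untreated or normal tissue, so cells of 1 mouse are described below with no test and no p-value. Levels are TPM, an abundance scaled by transcript length and to the same total in every library, and the read depth behind them is unknown. The table held 56 libraries, of which 6 pairs had nearly the same profile (Pearson's r from 0.957 to 0.992, the next highest pair reaching 0.782). That the libraries of such a pair come from the same cell was inferred from their profiles and is not stated in the labels. The mean of each such pair stood for 1 cell, and the resulting 50 cells had 1316 to 7234 genes at 1 TPM or more. All 10 epithelial markers checked were seen in the cells (median 10 per cell), whereas the leukocyte gene Ptprc and the endothelial gene Pecam1 were at 1 TPM or more in 0 of 50 cells. Of the other marker lists, 7 of 12 leukocyte genes were seen in any cell (Cd14 in 37, Csf1r in 21), 2 of 6 endothelial genes (at most 5 cells) and 2 of 7 fibroblast genes (Pdgfra in 25).

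Most histone proteins are needed in bulk only while DNA is copied, and cells make the mRNAs of these genes mainly in S phase. The mRNAs are unusual in that they normally end in a conserved hairpin, the histone stem-loop, rather than in a poly(A) tail. The stem-loop is bound by the protein Slbp, and U7 small nuclear RNA guides the cut just behind it. Some histone genes can also be read past the stem-loop to a poly(A) signal, which is known from differentiated or resting cells. The labels give the molecule as polyA RNA, so the values below describe the histone RNA that this capture recovered, and how much stem-loop-ended RNA was missed was not tested.

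The stem-loop was searched in the annotated transcripts as a 16-base hairpin, because its place relative to the transcript end bears on which histone RNAs a poly(A) capture can recover. It was found in 30 of the 63 genes (47.6%), against 41 of 55450 annotated genes (0.0739%). In 22 genes its letters were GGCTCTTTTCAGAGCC, in 7 genes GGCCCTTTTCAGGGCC and in 1 gene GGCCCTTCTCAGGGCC. The following stem-loops, in capitals with flanking bases, belong to genes on which the results below turn (GRCm38, coordinates of the stem-loop, 5′ to 3′ on the coding strand).
Hist1h1c, chr13:23739512-23739527, plus strand: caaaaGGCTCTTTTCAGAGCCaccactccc
Hist1h2ap, chr13:21833029-21833044, minus strand: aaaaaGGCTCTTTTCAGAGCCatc
Hist1h2ae, chr13:23570668-23570683, minus strand: acaaaGGCTCTTTTCAGAGCCattcactta
Hist1h2bg, chr13:23571843-23571858, plus strand: ccaaaGGCTCTTTTCAGAGCCacccatact
Hist1h4d, chr13:23581950-23581965, plus strand: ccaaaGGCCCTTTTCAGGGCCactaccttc
The annotated Hist1h1c transcript goes on for 840 bases behind this hairpin, that of Hist1h4d for 770, that of Hist1h2bg for 155 and that of Hist1h2ae for 151. The Hist1h2ap model ends 3 bases behind it. The remaining 33 genes had no stem-loop in an annotated transcript, among them Hist1h2ba, Hist1h2bc, Hist1h2bl and Hist1h4i. No match says only that these letters are not in the annotated transcript, since some models stop at the end of the coding sequence.

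Promoters of 58 of the 63 genes were found in the RefSeq table for GRCm38.p6 (250 bases before to 50 bases after the start). Searched on both strands were the letters TATAAA of the TATA box, the CCAAT box and the octamer ATTTGCAT, none of which contains another. TATAAA stood in 33 of 58 histone promoters (56.9%), against 13.6% of all 32851 promoters of the table. CCAAT stood in 49 (84.5%), against 37.4%. All 6 H1, 17 H2A, 14 H2B and 9 H3 promoters held it, but 3 of 12 H4 promoters did. The octamer stood in 12 (20.7%), against 1.74%, and these were 7 H2A and 5 H2B promoters. Windows of neighbours read in opposite directions can overlap, so the same site can count for both genes. The octamer did so for Hist1h2ae and Hist1h2bg, for Hist1h2aa and Hist1h2ba, and for Hist1h2ah and Hist1h2bk. The promoters counted are thus not all separate sequences. The promoters of Hist1h1c and Hist1h2ap, the genes with the largest shares of the summed level, and of Hist1h2bg are printed below, each 5′ to 3′ on the coding strand, with the searched motifs of either strand in capitals. They lie at chr13:23738557-23738856 on the plus strand, chr13:21833426-21833725 on the minus strand and chr13:23571150-23571449 on the plus strand.
Hist1h1c: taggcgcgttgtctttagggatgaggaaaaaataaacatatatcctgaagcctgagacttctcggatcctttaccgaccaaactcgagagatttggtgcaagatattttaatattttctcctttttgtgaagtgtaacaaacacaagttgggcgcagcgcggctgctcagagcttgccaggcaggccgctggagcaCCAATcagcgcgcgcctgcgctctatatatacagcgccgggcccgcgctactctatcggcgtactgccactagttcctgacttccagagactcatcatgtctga
Hist1h2ap: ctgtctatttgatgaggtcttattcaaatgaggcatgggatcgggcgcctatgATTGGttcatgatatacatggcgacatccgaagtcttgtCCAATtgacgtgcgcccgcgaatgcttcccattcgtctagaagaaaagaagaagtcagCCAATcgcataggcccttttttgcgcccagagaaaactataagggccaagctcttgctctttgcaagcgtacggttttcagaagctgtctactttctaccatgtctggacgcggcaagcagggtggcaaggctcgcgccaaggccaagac
Hist1h2bg: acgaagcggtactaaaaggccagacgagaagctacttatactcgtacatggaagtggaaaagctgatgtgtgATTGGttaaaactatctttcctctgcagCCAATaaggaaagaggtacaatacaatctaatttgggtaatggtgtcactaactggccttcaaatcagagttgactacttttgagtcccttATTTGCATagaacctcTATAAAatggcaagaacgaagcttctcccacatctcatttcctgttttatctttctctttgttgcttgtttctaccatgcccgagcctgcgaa
The Hist1h2bg window spans the 175 bases between this gene and its H2A neighbour Hist1h2ae, which is read in the other direction. It holds all 3 motifs, whereas the Hist1h1c and Hist1h2ap windows hold CCAAT alone. A match is a description of the sequence and not of a bound factor.

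Nearly all histone genes were seen somewhere, and few were seen often. The limit for calling a gene seen was 1 TPM. In at least 1 cell 61 of 63 genes were seen, against 57.5% of all rows of the table. In 20% of cells (10 cells) or more 18 genes were seen (28.6%), against 37.6% of all rows. Another 43 genes were seen in 1 to 9 cells. Hist1h4b and Hist2h2ab were at 1 TPM in 0 of 50 cells, which allows a share of cells at 1 TPM or more of up to 6% (3 counts of 50). The 18 more frequent genes were 2 of 6 H1, 7 of 17 H2A, 5 of 16 H2B, 2 of 11 H3 and 2 of 13 H4 genes, so each class had a few recurrent genes beside a majority of rare ones. A cell had between 1 and 35 histone genes seen, with a median of 11. This number went with the number of all genes seen in the cell (Spearman's rho = 0.55 across 50 cells that share 1 mouse).

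**Figure D1:**
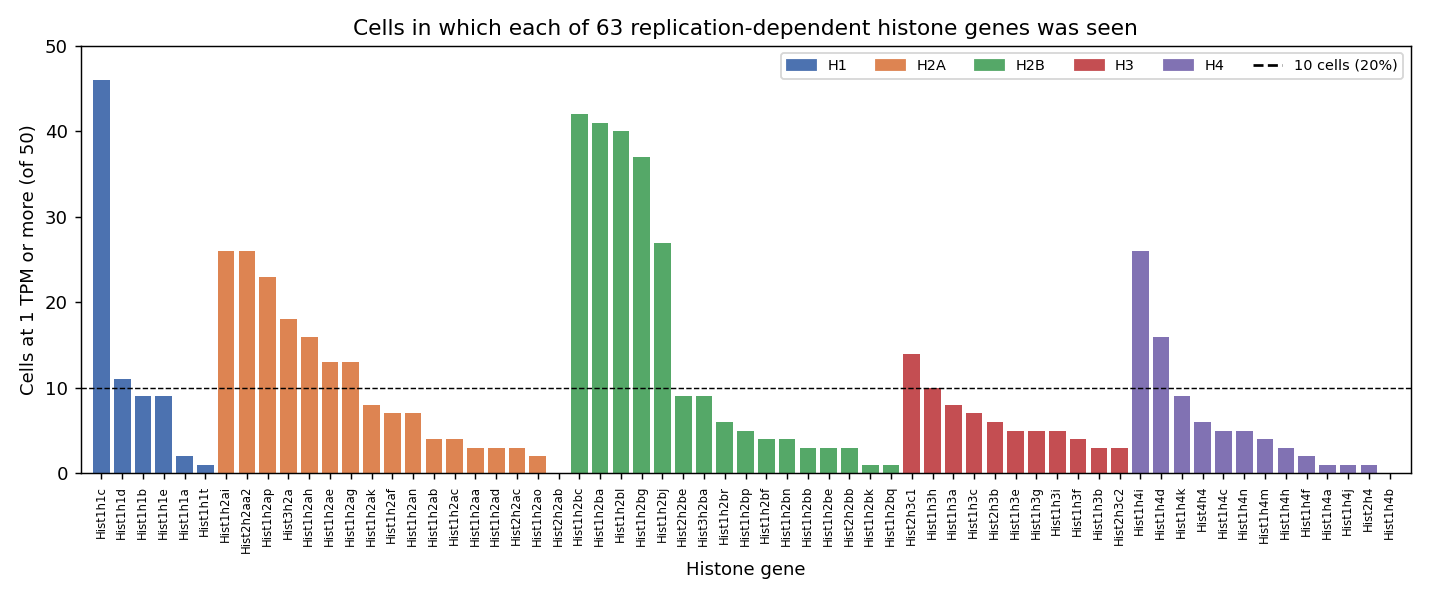
Bars give the number of cells, of 50, in which each of the 63 histone genes was at 1 TPM or more, coloured by histone class and ordered within it, with a dashed line at 10 cells. Hist1h1c stands at 46 cells and 4 H2B genes at 37 to 42 cells, while most bars lie under the line.

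Hist1h1c, which encodes the linker histone H1.2, was the most widespread and the most abundant. It was seen in 46 of 50 cells (92.0%, exact Clopper-Pearson interval 80.8% to 97.8%, which covers counting error only). Its level ranged from 0 through a median of 666 to 12698 TPM, and it held 45.2% of all histone TPM summed over the cells. Within a cell its share of the histone TPM ran from 0% to 92.5%, with a median of 32.9%, so cells differed widely in how far this 1 gene made up their histone RNA. The other H1 genes were rarer, with Hist1h1d in 11 cells, Hist1h1b and Hist1h1e in 9 each, and Hist1h1a and the testis gene Hist1h1t in 2 and 1. Of the 50-base windows of Hist1h1c, 8.54% recur in another gene, a smaller share than for 16 of the other 17 frequent histone genes.

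Among the H2B genes, 4 formed a common set. Hist1h2bc was seen in 42 cells (median 25.1, highest 381 TPM) and Hist1h2ba, known as a testis H2B, in 41 (median 86.7, highest 918 TPM). Hist1h2bl was seen in 40 cells (median 131, highest 2172 TPM) and Hist1h2bg in 37 (median 110, highest 1552 TPM). They were also the members that went together most closely across the 50 cells, with rho from 0.75 (Hist1h2bg and Hist1h2bl) to 0.93 (Hist1h2ba and Hist1h2bc). These genes resemble each other in sequence: 38.3% of the 30-base windows of Hist1h2ba recur in Hist1h2bc, and 68.5% of those of Hist1h2bl do. The sources used here do not say how the authors' counting split reads between such copies, so the level of each of these genes, and the presence of the testis gene, are uncertain. The part of shared reads in their common course was not tested.

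H2A genes were seen in fewer cells, and 1 of them reached very high levels. Hist1h2ap was seen in 23 cells, with a median of 0 and a highest value of 11630 TPM, and held 15.7% of the summed histone TPM. Hist1h2ai and Hist2h2aa2 were each seen in 26 cells (medians 10.2 and 4.28 TPM, highest 959 and 1802 TPM). Hist3h2a followed with 18 cells, Hist1h2ah with 16, and Hist1h2ag and Hist1h2ae with 13 each, all with a median of 0. Copies blur these values too, since 93.1% of the 50-base windows of Hist1h2ap recur in Hist1h2ao (seen in 2 cells) and all of those of Hist2h2aa2 in Hist2h2aa1. Hist3h2a overlaps the gene Trim17, which shares 31.5% of its windows. Over all 63 genes the median share of windows found in another gene was 55%.

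H3 and H4 genes were the least often seen of the core histones. The H4 gene Hist1h4i was seen in 26 cells, with a median of 2.63 and a highest value of 2657 TPM, and Hist1h4d in 16, with up to 401 TPM. Of the H3 genes, Hist2h3c1 was seen in 14 cells (highest 290 TPM) and Hist1h3h in 10 (highest 163 TPM). Hist1h3h stands exactly at the limit of 10 cells. Hist2h3c1 shares all its 50-base windows with the overlapping gene model Gm20634, and its level cannot be told apart from that model.

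Summed by class, H1 RNA was highest in the typical cell and H3 RNA lowest. The H1 sum had a median of 722 TPM (0 to 12698), the H2B sum 448 (0 to 6418) and the H2A sum 420 (0 to 16777), each at 1 TPM or more in 47 cells. The H4 sum had a median of 103 TPM (0 to 2777, 34 cells) and the H3 sum 6.59 TPM (0 to 1018, 29 cells). H1, H2A, H2B, H4 and H3 held 46.8%, 27.9%, 15.6%, 7.01% and 2.67% of the summed TPM. The largest class was H1 in 21 cells, H2B in 14, H2A in 13, H4 in 2 and H3 in 0. Nucleosomes hold equal numbers of the core histones, and these TPM sums did not follow that ratio. The ranges overlap widely between H1, H2A and H2B.

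**Figure D2:**
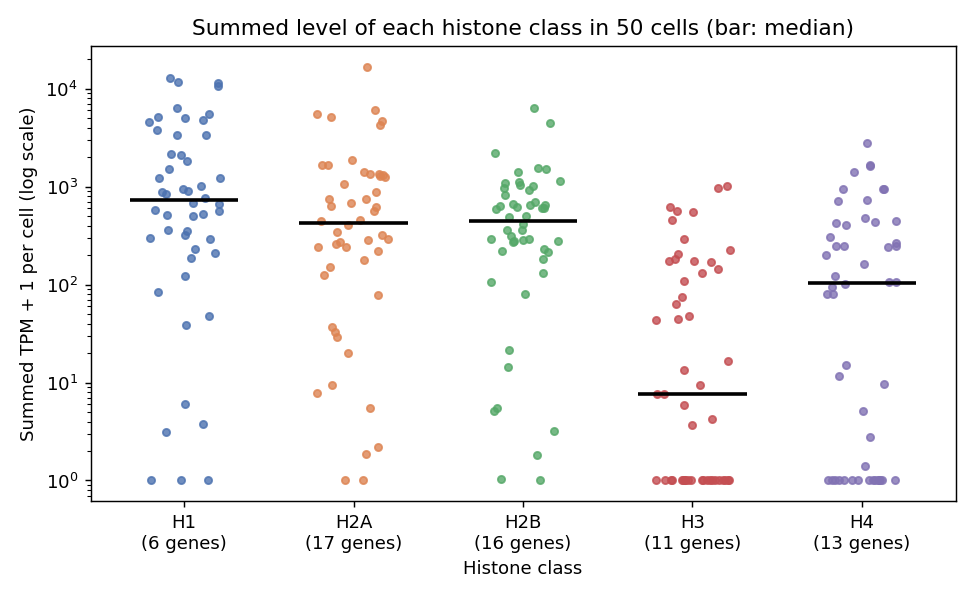
Points give the summed TPM plus 1 of each histone class in each of 50 cells on a log axis, spread sideways for legibility, with a bar at the median. H1, H2A and H2B have medians of 420 to 722 TPM, while the H3 median is 6.59 TPM and many cells are listed at 0.

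All histone genes together reached from 9 to 31980 TPM per cell, with a median of 2118 TPM (0.212% of all TPM), and 39 of 50 cells had 1000 TPM or more. A few cells carried much of the total: 1 cell held 13.6% of the summed histone TPM, 5 cells 41.9% and 10 cells 63.1%. Cells with a high total differed in which genes supplied it. The highest cell (indexes N705-N507) had 35 histone genes seen, 11630 TPM of Hist1h2ap, 4675 TPM of Hist1h1c and 57.4 TPM of the proliferation gene Mki67. The second highest cell (N708-N502) had 9730 TPM of Hist1h1c, 4327 TPM of Hist1h2ap and 61.5 TPM of Mki67. By contrast, the cell N707-N502 had 14973 TPM, of which Hist1h1c made up 84.8%. Hist1h2ap and Mki67 were listed at 0 in it, and the mitosis gene Top2a was at 10.6 TPM. The cells N707-N507 and N707-N504 were like N707-N502 in their Hist1h1c levels, 10826 and 11440 TPM, with Mki67 listed at 0 in both. These 3 cells share the i7 index N707, and the part of that index in their level was not tested. The lowest cell (N706-N507) had 9 TPM of histone RNA although 5724 genes were seen in it.

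The averaged library pairs show how closely the histone values of paired libraries agreed. These pairs were chosen for their like profiles, and what their agreement says of the other libraries was not tested. Across the 6 pairs, histone genes were seen in 107 instances in either library, and 79 of these (73.8%) in both. The genes seen in only 1 of the paired libraries reached up to 241 TPM. The summed histone level nevertheless agreed within 1.23-fold and Hist1h1c within 1.31-fold. Hist1h2ap was less stable: the paired values were 322 and 865 TPM, 19.5 and 149 TPM, 19.4 and 0 TPM, and 913 and 891 TPM. Single histone genes thus differed more between paired libraries than the sum did.

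The histone levels were next set beside 4 genes of the cell cycle: Mcm5, a subunit of the replicative helicase, Pcna, the sliding clamp of DNA polymerase, Mki67, which coats mitotic chromosomes, and Top2a, which untangles DNA in mitosis. Mcm5 was seen in 19 cells (median 0.06, highest 181 TPM), Pcna in 47 (median 99.5, highest 987 TPM), Mki67 in 14 (median 0, highest 137 TPM) and Top2a in 18 (median 0.0775, highest 150 TPM). Among themselves they had a rho of 0.30 (Pcna and Mki67) to 0.62 (Mki67 and Top2a). Each also went with the number of genes seen in the cell (0.52, 0.37, 0.40 and 0.51 in the order Mcm5, Pcna, Mki67, Top2a), as the summed histone level did (0.30). Correlations are Spearman's rho over 50 cells of 1 mouse, in which every value shares the cell's library and its depth.

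The summed histone level followed the 4 genes weakly. Its rho was 0.17 with Mcm5, 0.08 with Pcna, 0.31 with Mki67 and 0.27 with Top2a. Among the 32 cells with i7 indexes N704 to N707, the values were 0.08, -0.04, 0.07 and 0.06 in the same order. Among the 18 cells with i7 indexes N708 to N710 they were 0.29, 0.31, 0.58 and 0.65. The relation was stronger in the second set for all 4 genes, and the difference was not tested. All cells averaged from library pairs lie in the second set, so the i7 sets compared here and below also differ in that respect. Hist1h1c carried much of this sum. Without it the pooled values were 0.39, 0.20, 0.52 and 0.41.

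Classes differed in this respect. The H2A sum had a rho of 0.42 with Mcm5, 0.30 with Pcna, 0.46 with Mki67 and 0.44 with Top2a, and the H4 sum 0.40, 0.30, 0.43 and 0.38. The H1 sum had -0.02, -0.04, 0.08 and 0.07. The H2B sum lay between these with 0.13, 0.03, 0.32 and 0.23, as did the H3 sum with 0.31, 0.03, 0.38 and 0.27. Single genes set these differences in part, as the H1 sum without Hist1h1c (20 cells at 1 TPM or more) had 0.52, 0.19, 0.45 and 0.44. The H2A sum without Hist1h2ap fell to 0.30, 0.13, 0.27 and 0.24. The H2B sum without Hist1h2ba, Hist1h2bc, Hist1h2bg and Hist1h2bl had 0.35, 0.16, 0.45 and 0.29, and those 4 alone -0.01, -0.09, 0.17 and 0.14.

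In the i7 indexes N704 to N707 the H2A sum had a rho of 0.32 with Mki67 and 0.23 with Top2a, and in N708 to N710 0.60 and 0.79. For the H4 sum these were 0.29 and 0.15, and 0.68 and 0.71. Both classes were thus on the positive side in both sets. The H1 sum had -0.14 with Mki67 in the first set and 0.47 in the second, so its sign depended on the libraries. The H3 sum kept its sign with Mki67 (0.31 and 0.46) but not with Mcm5 (0.46 and -0.03), and the H2B sum had 0.02 and 0.45 with Mki67. A rho of 0.4 or more was reached by 4 of the 20 pairs of class and gene, by 2 without the highest cell (N705-N507) and by 0 once the number of genes per cell was held fixed.

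Of the 18 histone genes seen in 20% of cells, 5 had a rho of 0.4 or more with Mcm5, against 4.33% of 9165 genes tested. With Pcna there were 2 (background 2.83%), with Mki67 4 (3.94%) and with Top2a 6 (3.37%). Without the highest cell (N705-N507) the count for Top2a was 2. With the number of genes per cell held fixed, the counts in the same order of genes were 3, 0, 3 and 1. They were 4, 0, 3 and 2 in i7 indexes N704 to N707 and 6, 4, 13 and 12 in N708 to N710. The 20% filter was applied anew within each i7 set and without the highest cell. These counts are thus not tied to the 18 genes, and the background share within each set was not computed. The median rho of the 18 genes was 0.13, 0.05, 0.25 and 0.15 in the order Mcm5, Pcna, Mki67, Top2a, against 0.04, 0.05, 0.05 and 0.06 over all genes tested. In the pooled cells the share of histone genes at 0.4 or more was above the background for all 4 genes. The median for Pcna differed from that of all genes by less than the digits printed. Some histone genes counted resemble each other in sequence. Of the windows of Hist1h2ae, Hist1h2ah and Hist1h2ag, 30.1%, 73.3% and 71.8% recur in Hist1h2ap. Hist1h2ap and Hist1h2ae made up the count for Pcna, and all of these H2A genes were counted for Top2a. The part of shared reads in these counts was not tested.

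**Figure D3:**
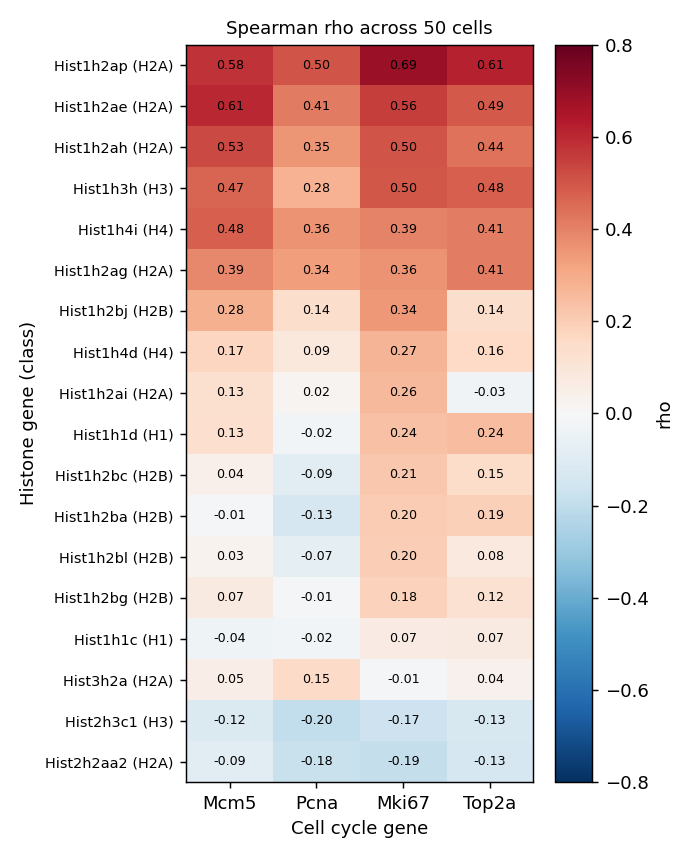
Colours and printed values give Spearman's rho across 50 cells between each of 18 histone genes (rows, ordered by rho with Mki67) and Mcm5, Pcna, Mki67 and Top2a (columns). Hist1h2ap, Hist1h2ae and Hist1h2ah are at the top with 0.50 to 0.69 for Mki67, and Hist1h1c has -0.04 to 0.07 over the 4 genes.

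Hist1h2ap had a rho of 0.58 with Mcm5, 0.50 with Pcna, 0.69 with Mki67 and 0.61 with Top2a, the highest of the 18 genes for Pcna, Mki67 and Top2a in the pooled cells and below Hist1h2ae for Mcm5. It was seen in 12 of the 14 cells with Mki67 at 1 TPM or more (85.7%, exact Clopper-Pearson interval 57.2% to 98.2%) and in 11 of the 36 others (30.6%, 16.3% to 48.1%). For Mcm5 the counts were 15 of 19 and 8 of 31. Its rho with Mki67 was 0.58 in i7 indexes N704 to N707 and 0.78 in N708 to N710, 0.78 and 0.53 in the i5 sets N502 to N505 and N506 to N517, and 0.62 with the number of genes per cell held fixed. It was 0.67 without the highest cell. The summed level of the 10 epithelial markers had a rho of -0.40 with Hist1h2ap, and its part in these relations was not tested.

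The other genes of the 18 with a rho of 0.4 or more with at least 1 cycle gene were the H2A genes Hist1h2ae, Hist1h2ah and Hist1h2ag, the H3 gene Hist1h3h and the H4 gene Hist1h4i. Hist1h2ae had a rho of 0.61, 0.41, 0.56 and 0.49 with Mcm5, Pcna, Mki67 and Top2a, and its counts with and without Mki67 were 9 of 14 and 4 of 36 cells. Hist1h2ah had 0.53, 0.35, 0.50 and 0.44, and Hist1h3h 0.47, 0.28, 0.50 and 0.48. Hist1h4i had 0.48, 0.36, 0.39 and 0.41, and Hist1h2ag 0.39, 0.34, 0.36 and 0.41. The H2B gene Hist1h2bj was below that limit but positive with all 4 (0.28, 0.14, 0.34 and 0.14), as was Hist1h4d (0.17, 0.09, 0.27 and 0.16). The relation of Hist1h4i with Mki67 was uneven over libraries, at 0.11 in i7 indexes N704 to N707 and 0.65 in N708 to N710. That of Hist1h2ag was uneven the other way, at 0.48 and 0.02 with Mki67, 0.52 and 0.06 with Mcm5, and 0.61 and 0.05 with Top2a.

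Hist1h1c did not follow the cycle genes, with a rho of -0.04 with Mcm5, -0.02 with Pcna, 0.07 with Mki67 and 0.07 with Top2a. Its counts with and without Mki67 were 13 of 14 and 33 of 36 cells. Its rho with Mki67 was -0.17 in i7 indexes N704 to N707 and 0.48 in N708 to N710. The 4 common H2B genes were also near 0 with Mcm5 (-0.01 to 0.07) and Pcna (-0.13 to -0.01), and had 0.18 to 0.21 with Mki67. With Mki67 their sign also turned between the i7 sets, from -0.09 to -0.04 in N704 to N707 and from 0.25 to 0.44 in N708 to N710. Hist2h2aa2 and Hist2h3c1, neighbours on chromosome 3, had negative values with all 4 genes over the 50 cells, from -0.09 to -0.20. For Hist2h2aa2 the direction turned between library sets, with -0.58 for Mki67 in i5 indexes N502 to N505 and 0.27 in N506 to N517. For Hist2h3c1 the values with Pcna were -0.27 in i7 indexes N704 to N707 and 0.08 in N708 to N710. Hist1h1c and the 4 common H2B genes, the 5 genes seen in the most cells, thus had no rho of 0.4 or more with any of the 4 cycle genes in the pooled cells.

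**Figure D4:**
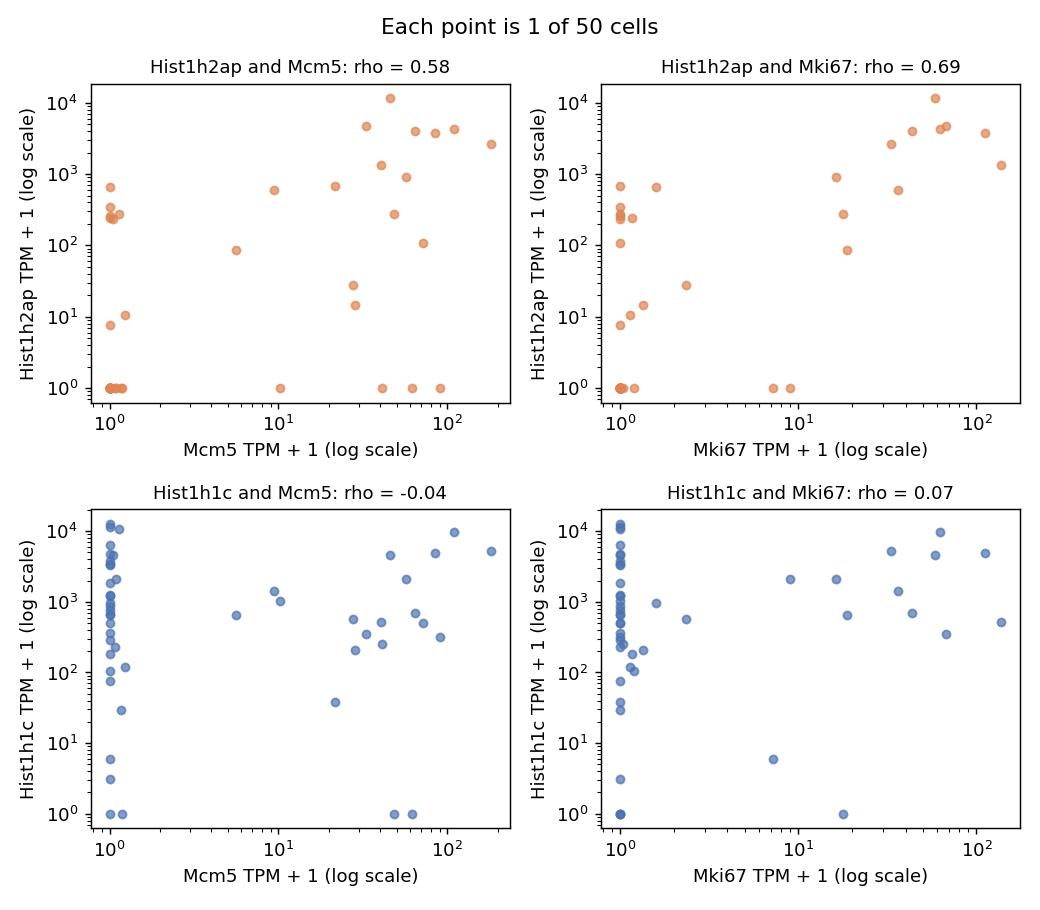
Each point is 1 of 50 cells, with Mcm5 (left) or Mki67 (right) on the x axis and Hist1h2ap (top) or Hist1h1c (bottom) on the y axis, all as TPM plus 1 on log axes. High Hist1h2ap lies mostly with cells that have Mcm5 or Mki67 (rho 0.58 and 0.69), whereas Hist1h1c is high on both sides (rho -0.04 and 0.07).

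The 18 genes were also compared with each other. Over 153 pairs the median rho was 0.23, from -0.15 to 0.93, and 26 pairs reached 0.4. The median and share over pairs of all genes were not computed, so whether histone genes differ from other genes here was not tested. Pairs of the same class had a median of 0.31 (34 pairs) and pairs of different classes 0.21 (119 pairs). Genes of the same class can share sequence, and the part of shared reads in these medians was not tested. One set of genes that went together was that of the 4 common H2B genes. The other joined classes: Hist1h2ap had 0.62 with the H4 gene Hist1h4i, 0.61 with Hist1h2ah, 0.59 with Hist1h2ae, 0.53 with Hist1h2ag and 0.46 with the H3 gene Hist1h3h. Hist2h2aa2 and Hist2h3c1 had 0.47. By class, the sums of H2A and H4 and those of H1 and H2B had the highest rho of the 10 class pairs (0.53 each), and H2A and H2B the lowest (0.24).

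**Figure D5:**
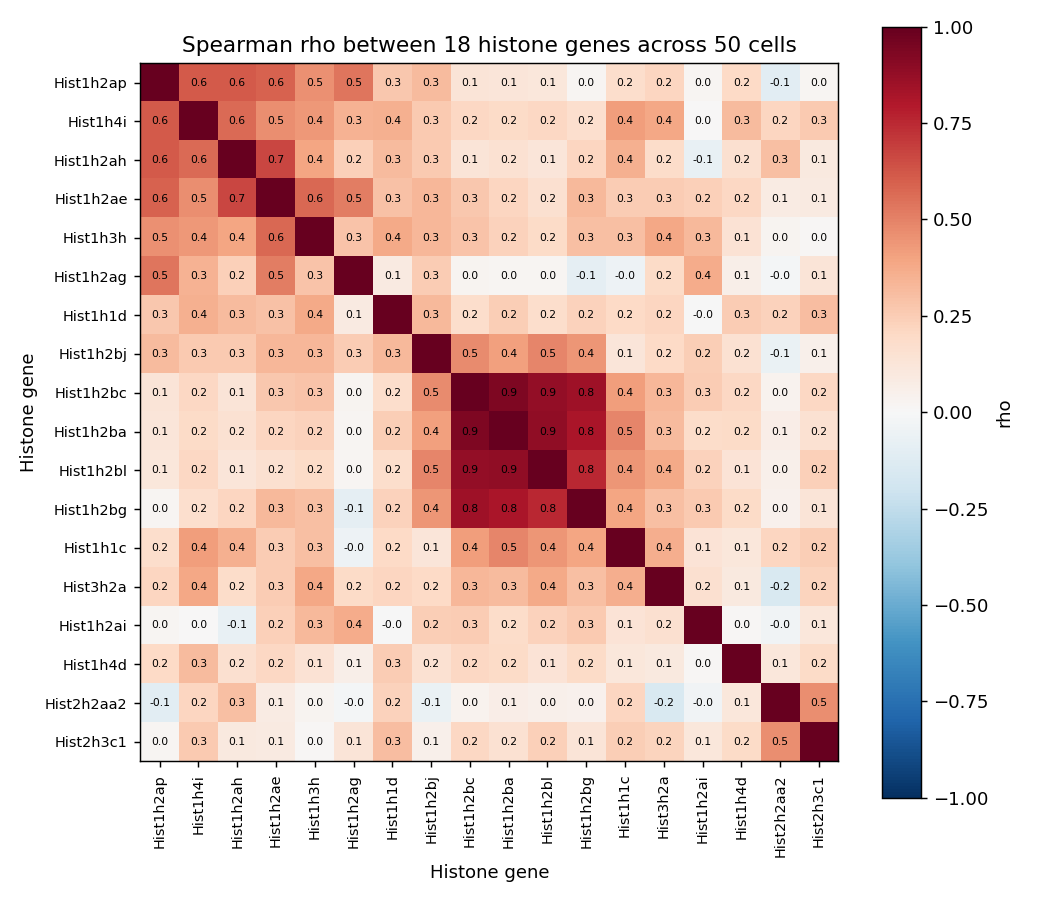
Colours and printed values give Spearman's rho across 50 cells for each pair of 18 histone genes, ordered by hand to bring related genes together. Hist1h2ba, Hist1h2bc, Hist1h2bg and Hist1h2bl form a block at 0.75 to 0.93, and Hist1h2ap goes with Hist1h4i, Hist1h2ah and Hist1h2ae at 0.59 to 0.62.

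Genes of H2A and H2B often lie head to head with a shared stretch between them, as Hist1h2ae and Hist1h2bg do in the promoter printed above. There were 12 such pairs with 175 to 305 bases between the genes. Neighbours could differ widely in how often they were seen. Hist1h2ae was seen in 13 cells and Hist1h2bg in 37, both of them in 11, with a rho of 0.32. Hist1h2ac and Hist1h2bc were seen in 4 and 42 cells (rho -0.10), and Hist1h2ap and Hist1h2br in 23 and 6 (rho 0.03). Over the 12 pairs rho ran from -0.14 (Hist1h2ak and Hist1h2bn, seen in 8 and 4 cells) to 0.32. Most of these pairs hold a gene seen in fewer than 10 cells, where the many values of 0 limit rho. The 4 common H2B genes, none of which neighbour each other in this way, had 0.75 to 0.93. They were seen in 37 to 42 cells and resemble each other in sequence, so the ranges are not like for like.

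The stem-loop and the annotated 3′ end were set beside these levels. Genes with more than 100 annotated bases behind the stem-loop (15 genes) were seen in a median of 9 cells, and 7 of them in 20% of cells. Genes whose models end within 60 bases of it (15 genes) had a median of 4 cells, with 4 in 20% of cells. The first set held 57.0% of the summed TPM, most of it Hist1h1c, and the second 22.4%, most of it Hist1h2ap. The 33 genes without a stem-loop had a median of 5 cells, with 7 in 20% of cells, and held 20.6% of the summed TPM. The median rho with Mki67 was 0.18 in the first set, 0.33 in the second and 0.23 in the genes without a stem-loop. Genes listed at 0 in all cells have no rho and are not in these medians. Most genes of each set were seen in fewer than 20% of cells, where the many values of 0 limit rho. Whether rho differs with the annotated 3′ end was thus not tested. The sets rest on annotated models, and whether the RNA measured ran past the stem-loop was not tested.

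Lists of related genes were set beside the histone genes. Genes tested outside the members reached a rho of 0.4 with the summed histone level in 0.623% of cases, with Hist1h2ap in 4.29% and with Hist1h1c in 0.404% (9148 genes). Of 23 S phase genes seen in 20% of cells, 18 reached it with Hist1h2ap (median 0.51), 1 with the summed level and 0 with Hist1h1c. Of 19 genes of G2 and mitosis, 15 did so with Hist1h2ap (median 0.61), 2 with the summed level and 0 with Hist1h1c. Examples with a high rho with Hist1h2ap were Cdk1 (0.74), the mitotic kinase, Rpa2 (0.73), which binds single-stranded DNA, and Rrm2 (0.62), which makes deoxynucleotides. The S phase genes seen in most cells were Pcna (47 cells, rho 0.50), Mcm7 (42 cells, 0.45) and Gins2 (41 cells, 0.20). Those of G2 and mitosis were Kif11 (48 cells, 0.19), Bub3 (43 cells, 0.26) and Cks2 (41 cells, 0.45). Hist1h2ap was singled out after its values with Mcm5, Pcna, Mki67 and Top2a were seen, and the lists hold these 4 genes, so part of the counts restates that choice. Without them the counts with Hist1h2ap were 16 of 21 S phase genes and 13 of 17 genes of G2 and mitosis, and these are a description and no independent support.

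Histone chaperones, which carry new histones to DNA, were split. With Hist1h2ap 7 of 18 reached 0.4, among them Asf1b (0.74), which hands over H3 and H4, Chaf1b (0.52), a subunit of the chromatin assembly factor, and Nasp (0.55), which stores H3 and H4. The 7 also include the helicase subunit Mcm2 (0.49), which the S phase list holds too and which was counted in both. Of the 3 seen in most cells, Ssrp1 (47 cells) had 0.44, Rbbp7 (48 cells) 0.32 and Nap1l1 (49 cells) 0.04. With the summed level 1 of 18 reached 0.4 and with Hist1h1c 0. Genes of histone mRNA processing reached 0.4 in 0 of 10 cases with the summed level, Hist1h2ap or Hist1h1c. In that list, Slbp was seen in 37 cells (median 22.01 TPM) with a rho of 0.29 with Hist1h2ap, Cpsf2 in 38 (0.02) and Cpsf3, the nuclease that cuts the pre-mRNA, in 37 (0.05).

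Of 11 replication-independent histone variants, most of whose mRNAs carry poly(A) tails, 10 were seen in 20% of cells or more. The share was 18 of the 63 replication-dependent genes and 37.6% of all rows. Variants differed, with H1fx seen in 3 cells, H2afy2 and Cenpa in 13 each and H2afx in 25. H3f3b (H3.3) was seen in all 50 cells with a median of 5100 TPM, H2afz (H2A.Z) in 50 with 1900 TPM and H2afj in 50 with 390 TPM. The H3f3b median is above that of the summed level of all 63 replication-dependent genes (2118 TPM). With the summed level 3 of 10 variants reached 0.4: H3f3b (0.61), H2afx (0.45) and H1f0 (0.44). With Hist1h2ap they were Cenpa (0.60), the centromeric H3, H2afz (0.56) and H2afx (0.50). H3f3b also had 0.60 with Hist1h1c and 0.33 with Hist1h2ap.

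Among all genes outside the members that had the same sign in both i7 sets, H3f3b had the highest rho with the summed level, at 0.55 and 0.79 in the sets. Gtse1 (0.55), a microtubule-binding protein of G2, 9530082P21Rik (0.53), Greb1l (0.51), the condensin subunit Ncapg (0.51), the nucleoporin Ndc1 (0.50), the mitochondrial ribosomal protein gene Mrps12 (0.50), Tmem56 (0.50), Jmjd7 (0.50) and Eif4e2 (0.49) followed. The lowest were Gab2 (-0.53), Gm16702 (-0.47), Prr5 (-0.44), 4930525G20Rik (-0.43) and Cd80 (-0.43).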

How the data were processed

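The deposited table gave TPM per Ensembl gene ID and library, computed by the authors. The submitters' processing notes name RSEM 1.2.31, Bowtie2 2.2.9, bcl2fastq 1.8.4 and the build GRCm38.p4. The sources used here do not give settings, annotation release, strand use or the handling of reads that match several copies. Depth cannot be read from TPM, and an exact 0 was read as listed at 0. Symbols, coordinates and transcripts came from GENCODE M21, and 24235 of 24410 IDs had a symbol. Columns were matched to samples by index pair.

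The members and gene lists were chosen with earlier results of these data known. Genes named were the members seen in 20% of cells and the most frequent of each class and list. By rho with the summed level, the 10 highest and 5 lowest other genes were also named. These had to be seen in 20% of cells, with a symbol and 1 sign in both i7 sets. Other members and list genes were named after their values were seen. Correlations were Spearman's rho on log2(TPM + 1), repeated within i7 and i5 sets. A cell averaged over libraries of both i5 sets was counted in both. A rho of 0.4 was the limit for counts. A repeat count over windows of 50 bases measured sequence shared between genes, in either orientation. Windows of 30 bases for H2B, and those of 50 bases between pairs of the 18 frequent genes, were counted in the same orientation. The correlation step was tested on simulated data. Alternatives were other detection limits, filters and pseudocounts, Pearson's r, a partial rho that holds genes per cell fixed, each of the 56 libraries as a cell, TPM rescaled without Gm10925 and ribosomal protein genes, other sums, and leaving out cells or each i5 index. The software was Python 3.11.15 with SciPy 1.17.1, pandas 2.3.3, numpy 2.4.6 and matplotlib 3.10.9.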

Additional observations from a re-analysis of the deposited data

How the results depend on the processing

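Of 96 relations of a class, member or sum with a cycle gene, 47 changed sign under at least 1 setting, and none of these had a rho of 0.4 or more in size in the 50 cells. The H1 sum with Mcm5 turned from -0.02 to 0.52 without Hist1h1c. No paired analysis was possible because there was 1 group and no comparison of groups. Over the settings, 198 values of the main relations and counts stayed within 0.1 in rho or 1.5 times in count, and 66 moved beyond that; the cause was not tested. Depth is unknown, so no TPM floor could be set for a gene listed at 0, and 50 cells of 1 mouse limit every rho. Leaving out each i5 index gave 59 to 61 histone genes seen and 16 to 21 in 20% of cells.

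The summed histone level had a rho with Mcm5 of 0.17, which was 0.017 as a partial rho given genes per cell, 0.32 as a mean of log2 values, 0.39 without Hist1h1c, the gene with the largest share, and 0.29 in i7 N708 to N710. Leaving out each i5 index gave 0.08 to 0.25. With Pcna it was 0.08, and -0.035 as a partial rho, 0.19 as a mean of log2 values, 0.20 without Hist1h1c, -0.041 and 0.31 in the i7 sets, 0.23 and -0.14 in the i5 sets, and 0.01 to 0.11 without each i5 index. With Mki67 it was 0.31, and 0.41 as Pearson's r, 0.43 as a mean of log2 values, 0.52 without Hist1h1c, 0.067 and 0.58 in the i7 sets, and 0.25 to 0.35 without each i5 index. With Top2a it was 0.27, and 0.39 as Pearson's r, 0.15 as a partial rho, 0.41 without Hist1h1c, 0.062 and 0.65 in the i7 sets, and 0.20 to 0.32 without each i5 index.

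The histone genes at a rho of 0.4 or more with Mcm5 numbered 5, but 3 by partial rho, 9 and 2 with filters of 10% and 40% of cells, and 4 to 7 without each i5 index. With Pcna 2 became 0 by partial rho, 0 and 4 in the i7 sets, 1 with the 40% filter, and 1 to 3 without each i5 index. With Mki67 4 became 13 in i7 N708 to N710, 7 in i5 N502 to N505, 9 and 1 with the 10% and 40% filters, and 3 to 6 without each i5 index. With Top2a 6 became 1 by partial rho, 2 without the 2 cells farthest from the median (N706-N507 and N705-N507), 2 and 12 in the i7 sets, 3 and 3 in the i5 sets, 2 with the 40% filter, 2 without the highest cell (N705-N507, chosen after the data were seen), and 3 to 6 without each i5 index.

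The 4 class relations at 0.4 or more became 0 by partial rho, 1 without the 2 farthest cells, 1 and 12 in the i7 sets, 7 and 1 in the i5 sets, 2 without the highest cell, and 3 to 7 without each i5 index. The 7 list genes at 0.4 or more with the summed level became 1 by partial rho, 19 as a mean of log2 values, 21 without Hist1h1c, 2 without the 2 farthest cells, 2 and 45 in the i7 sets, 19 and 3 in the i5 sets, 3 without the highest cell, and 1 to 11 without each i5 index.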
